A study of Mus musculus with 38 samples.

Results

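The 9 genes described here encode the enzymes that write, copy and remove 5-methylcytosine, together with their closest cofactors: Dnmt3a, Dnmt3b, Dnmt3l, Dnmt1, Uhrf1, Tet1, Tet2, Tet3 and Tdg. They were chosen by name, with earlier results of these data known, and are 9 of the 23479 genes in the bulk table. All 9 were also found in both kinds of single-cell table. Transcripts were measured, and DNA methylation itself was not.

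The cells were E14 mouse embryonic stem cells (mESCs), a single line that was grown without feeders in 2i/L, a medium with a MEK inhibitor, a GSK3 inhibitor and LIF. They were then exposed to all-trans retinoic acid (RA) in the basal medium N2B27, without the inhibitors and LIF, for up to 96 h. The bulk libraries counted unique molecular identifiers (UMIs) at transcript 3′ ends in mESCs (0 h, 2 libraries) and in whole cultures after 6, 12, 24, 36, 48, 60, 72, 84 and 96 h in RA (1 library each). Cells stained for the surface proteins CD24 and PDGFRA were sorted after 48 h as PDGFRA- cells in 4 classes of CD24 from Q1 (lowest) to Q4 (highest), and after 72 h as PDGFRA- cells in 3 classes from T1 (lowest) to T3 (highest) and as PDGFRA+/CD24- cells, with 1 library per gate. After 96 h, CD24+/PDGFRA- cells were sorted as ectoderm-like and PDGFRA+/CD24- cells as XEN-like, with 2 libraries each. Sorted cells of both kinds were also replated in N2B27 with EGF and FGF2 and gave 1 library each after longer culture, at passage 5 for ectoderm-like cells (ecto culture) and after 3 weeks for XEN-like cells, which were kept as floating aggregates (XEN culture). Single cells were profiled by SCRB-seq, a plate method that counts UMIs, at 9 times (2448 of 3456 wells held more than 2000 UMIs) and by SMART-seq2, a full-length method with values in RPKM, at 0, 12, 24 and 48 h (339 cells).

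DNA methylation at CG pairs is laid down anew by DNMT3A and DNMT3B, and the inactive relative DNMT3L binds and stimulates them. At replication, UHRF1 recognises hemimethylated DNA and recruits DNMT1, which copies the pattern to the new strand. TET1, TET2 and TET3 oxidise 5-methylcytosine, and thymine DNA glycosylase (TDG) excises the most oxidised forms, after which repair restores an unmodified cytosine. Naive mESCs in 2i/L are known for low genome-wide methylation, and the embryo gains methylation when the epiblast implants.

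Bulk libraries held 1063830 to 2459483 UMIs. Levels are given as UMIs per 1000000 UMIs of the library (CPM), with exact Poisson intervals in brackets (95%, counting error only). Because a UMI marks one 3′ end, these levels do not scale with gene length. The sorted cells carried their labelled markers: 11 of 11 ectoderm markers were higher in sorted ectoderm-like cells than in mESCs (9.85% of all genes tested were), and 11 of 11 XEN markers were higher in sorted XEN-like cells than in mESCs (12.3% of all genes). However, 8 of the 11 XEN markers also passed as higher in sorted ectoderm-like cells, where the list summed to 485 and 1779 CPM, against 281 and 197 CPM in mESCs and 12049 and 6664 CPM in sorted XEN-like cells. In whole cultures and sorted populations alike, fewer cells of a type and less RNA per cell cannot be told apart.

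The starts of the 9 genes differ in CG content. RefSeq (GRCm38.p6) gives them 16 start windows, each from 250 bases before to 50 bases after a start, and all 9 genes matched. Of these windows, 12 held more CG pairs than the median of 7 over 32851 promoters. Dnmt3a and Dnmt3l are shown because the time course and the sorted cells turn on them, and their windows lie far apart in CG content. The Dnmt3a window at chr12:3806730-3807029 (plus strand) holds 46 CG pairs and 82.3% G or C. A later annotated Dnmt3a start, 84.8 kb downstream at chr12:3891494-3891793, holds 18 CG pairs. The first Dnmt3l window, at chr10:78042037-78042336 (plus strand), holds 6. Below, CG pairs are in capitals.
Dnmt3a, first start: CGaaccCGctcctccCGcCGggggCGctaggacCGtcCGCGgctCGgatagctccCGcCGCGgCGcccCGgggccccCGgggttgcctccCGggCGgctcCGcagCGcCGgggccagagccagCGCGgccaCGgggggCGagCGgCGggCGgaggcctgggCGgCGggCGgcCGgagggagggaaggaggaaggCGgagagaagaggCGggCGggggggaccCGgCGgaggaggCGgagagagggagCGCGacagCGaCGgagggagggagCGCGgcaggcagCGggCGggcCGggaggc
Dnmt3a, downstream start: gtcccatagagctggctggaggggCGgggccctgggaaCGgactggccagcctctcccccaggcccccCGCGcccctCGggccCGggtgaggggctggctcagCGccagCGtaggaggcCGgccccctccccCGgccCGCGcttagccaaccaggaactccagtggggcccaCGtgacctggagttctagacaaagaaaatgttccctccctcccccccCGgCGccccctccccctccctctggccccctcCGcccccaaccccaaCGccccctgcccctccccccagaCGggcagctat
Dnmt3l, first start: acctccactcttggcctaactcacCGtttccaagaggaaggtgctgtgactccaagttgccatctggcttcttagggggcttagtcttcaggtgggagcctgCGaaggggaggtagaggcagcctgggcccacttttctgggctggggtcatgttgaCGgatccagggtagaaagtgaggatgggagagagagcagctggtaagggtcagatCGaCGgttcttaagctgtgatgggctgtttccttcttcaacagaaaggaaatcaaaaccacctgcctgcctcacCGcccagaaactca
The letters AGGTCA, the core bound by retinoic acid receptors and other nuclear receptors, were searched on both strands. They occurred in 3 of the 16 windows (the downstream Dnmt3a start, Tet1 and the downstream Uhrf1 start), against 16.3% of all promoters. The 3′ counts do not show which start was used. By the annotation of the same build, the gene bodies lie on chromosome 12 (Dnmt3a, 3806007 to 3914443), chromosome 2 (Dnmt3b, 153649450 to 153687730), chromosome 10 (Dnmt3l, 78041947 to 78063622; Tet1, 62804570 to 62908996; Tdg, 82629828 to 82650799), chromosome 9 (Dnmt1, 20907209 to 20959888), chromosome 17 (Uhrf1, 56303321 to 56323486), chromosome 3 (Tet2, 133463679 to 133545139) and chromosome 6 (Tet3, 83362373 to 83459084).

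The first question was when in RA each enzyme reached its highest level. Summed over their members, the de novo enzymes were highest at 24 h with 259 CPM, and the next highest time, 12 h, stood at 225 CPM, apart by counting error. The maintenance pair Dnmt1 and Uhrf1 was highest in mESCs with 258 CPM in replicate 1 and 224 CPM in replicate 2, and 6 h (258 CPM) was not apart from replicate 1. The removal enzymes were highest at 24 h with 192 CPM, not apart from 190 CPM at 6 h. Each RA time had 1 library, and the time course was not tested. The pair of mESC libraries gave a measure of the spread between libraries of one condition. Between these, the ratio of replicate 1 to replicate 2 was past counting error for 34.3% of the 7896 genes with at least 20 UMIs, and for 4 of the 9 genes: Dnmt3l (2.71, interval 2.02 to 3.68), Dnmt3b (2.05, interval 1.42 to 3.00), Uhrf1 (1.16, interval 1.01 to 1.33) and Tet1 (0.722, interval 0.561 to 0.926). Ratios of this size between single libraries therefore lie within what the replicate mESC libraries showed.

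**Figure D1:**
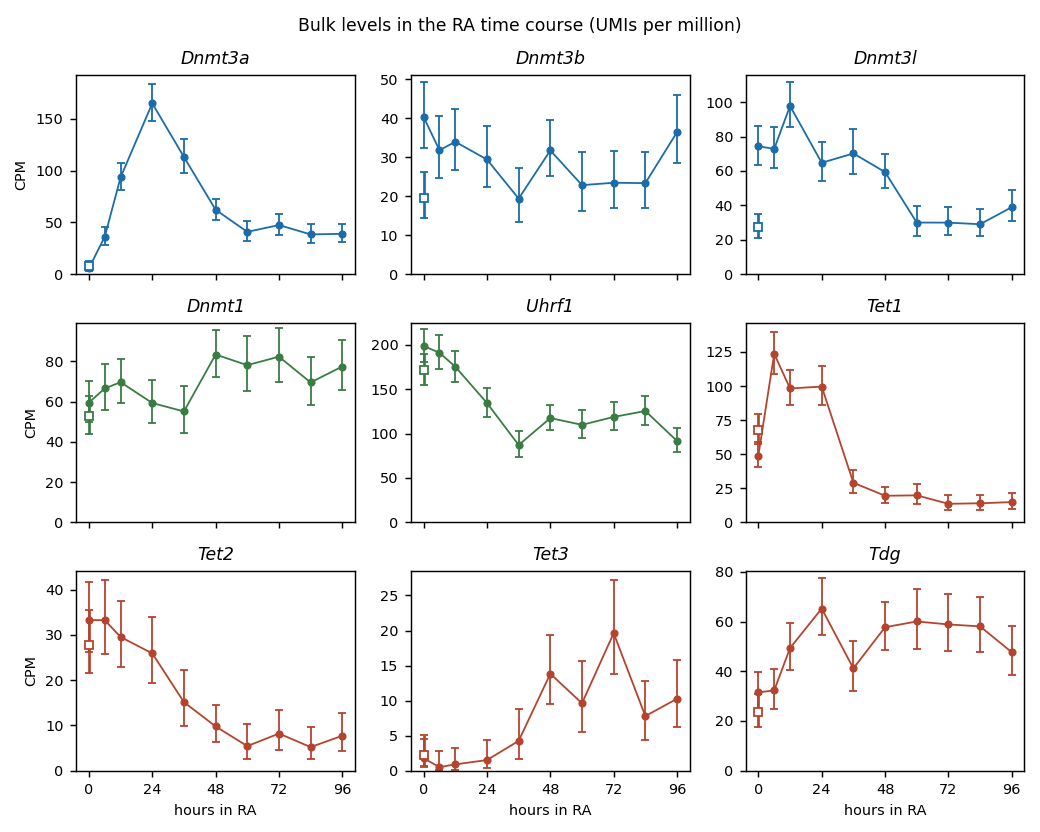
Levels of the 9 genes in bulk libraries (CPM) against hours in RA, 1 panel per gene, with mESC replicate 1 joined to the course and replicate 2 as an open square; bars are exact 95% Poisson intervals. Dnmt3a peaks at 24 h with 165 CPM, Tet1 at 6 h with 124 CPM, and Tet3 stays at or below 4.24 CPM until 36 h.

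Dnmt3a, a catalytic de novo enzyme, had the widest swing of the de novo enzymes. It stood at 5.69 and 8.27 CPM in the mESC libraries (13 and 19 UMIs), then at 36.2, 93.4 and 165 CPM at 6, 12 and 24 h. From 36 to 96 h it stood at 113, 62.2, 40.8, 47.4, 38.4 and 38.9 CPM. All 9 RA times thus lay above both mESC libraries, and 24 h was apart from 36 h, the next highest. The 24 h level was 28.99-fold (interval 16.7 to 55.03) that of mESC replicate 1 and 19.9-fold (interval 12.6 to 33.5) that of replicate 2. At 24 h, 4 of the 9 genes were past counting error against replicate 1 (3 higher, 1 lower), where 33.3% of all genes were, and 6 of 9 against replicate 2 (5 higher, 1 lower), where 43.7% were.

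Dnmt3l, the stimulating cofactor, reached its highest level earlier. It stood at 74.4 and 27.4 CPM in mESCs and at 72.9, 97.8, 64.8, 70.2 and 59.4 CPM from 6 to 48 h. From 60 to 96 h it stood at 30.02, 29.97, 29.04 and 38.9 CPM. Since the mESC libraries differ 2.71-fold, only the 12 h level lay outside their range. Dnmt3b, the other catalytic de novo enzyme, stood at 40.2 and 19.6 CPM in mESCs and between 19.4 and 36.4 CPM in RA. Of the successive RA times, 36 and 48 h (1.64-fold higher at 48 h, interval 1.07 to 2.55) and 84 and 96 h (1.56-fold higher at 96 h, interval 1.06 to 2.32) were apart by counting error. Reads of Dnmt3b are uncertain in principle, since 23.6% of the 50-base stretches of its paralog Dnmt3c also occur in Dnmt3b and Dnmt3c has no row in the table.

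Uhrf1, which brings DNMT1 to replicated DNA, was the most abundant of the 9 transcripts in the bulk mESC libraries, at 199 and 172 CPM. It stood at 191, 175, 134 and 87.1 CPM from 6 to 36 h and between 91.7 and 125 CPM from 48 to 96 h, so that 7 of the 9 RA times lay below both mESC libraries. Dnmt1, the maintenance methyltransferase, stood at 59.5 and 52.7 CPM in mESCs and between 55.1 and 83.4 CPM in RA. Its level at 48 h was 1.51-fold that at 36 h (interval 1.18 to 1.96), the only successive RA times apart by counting error for this gene. The Uhrf1 level at 24 h was 0.677-fold (interval 0.580 to 0.789) and 0.784-fold (interval 0.669 to 0.918) that of mESC replicates 1 and 2.

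Tet1, the main 5-methylcytosine oxidase of naive pluripotent cells with Tet2, stood at 48.99 and 67.9 CPM in mESCs, then at 124, 98.2 and 99.6 CPM at 6, 12 and 24 h. At 36 h it stood at 29.05 CPM, and from 48 to 96 h between 13.6 and 19.8 CPM. The first 3 RA times were therefore above, and the later 6 below, both mESC libraries, and the step from 24 to 36 h was a 3.43-fold lower level (interval 2.49 to 4.80). Tet2 showed no early peak in bulk: it stood at 33.2 and 27.9 CPM in mESCs, at 33.2, 29.5 and 25.9 CPM until 24 h, and between 5.19 and 15.1 CPM afterwards. Tet3, the oxidase also known from the zygote and neural cells, ran the other way. It was at 4 and 5 UMIs in mESCs (1.75 and 2.18 CPM) and at 0.489, 0.881, 1.49 and 4.24 CPM from 6 to 36 h, and stood at 13.8, 9.61, 19.6, 7.78 and 10.2 CPM from 48 to 96 h. The groups of times before 36 h and after 36 h did not overlap for any of the 3 Tet genes, with 1 library per RA time. How many of all genes split in this way was not counted, so the split only describes the values of these 3 genes. Between 24 and 96 h, 49.2% of all genes and 8 of the 9 were past counting error. Tdg stood at 31.5 and 23.5 CPM in mESCs, at 65.3 CPM at 24 h and between 32.3 and 60.0 CPM at the other RA times. Tdg counts may hold reads of its processed pseudogenes: 76.5% of the 50-base stretches of Gm9855 also occur in Tdg, and Gm9855 has its own row with 1254 UMIs over all bulk libraries.

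SCRB-seq gave a time course of its own, from 137 to 335 cells per time and 1 culture. Levels are UMIs per 10000 UMIs summed over the cells, and intervals treat UMIs as independent, although cells with a UMI of a gene often held more than 1. Dnmt3a stood at 0.196 (interval 0.138 to 0.271) at 0 h, 2.25 at 24 h, 2.19 at 36 h and 0.303 at 96 h. Its highest level was 11.4-fold (interval 8.13 to 16.5) that at 0 h, with 24 and 36 h not apart. Dnmt3b stood at 0.441 at 0 h, 2.27 at 24 h and 0.881 at 96 h, 5.16-fold at its highest (interval 4.05 to 6.63). This gene had no such peak in bulk, where its 24 h level was 0.730-fold (interval 0.517 to 1.02) and 1.5-fold (interval 1.00 to 2.26) that of the mESC libraries. Dnmt3l was highest at 12 h as in bulk, at 1.67 against 0.377 at 0 h (4.43-fold, interval 3.42 to 5.81), and stood at 0.206 at 96 h. The 3 de novo genes together were at 1.01 at 0 h and 5.63 at 24 h.

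The order within the Tet genes was similar in SCRB-seq. Tet1 stood at 3.45 at 0 h, 4.55 at 12 h, 2.16 at 36 h, 0.575 at 48 h and 0.358 at 96 h. Tet2 stood at 0.626 at 0 h, 1.32 at 24 h and 0.0138 at 96 h, the last from 1 UMI. Here Tet2 had a peak at 24 h (2.11-fold over 0 h, interval 1.67 to 2.67) that bulk did not show. Tet3 stood at 0.0796 at 0 h, 0.00522 at 12 h (1 UMI) and 0.509 at 96 h, its highest. Uhrf1 was highest at 6 h with 3.39 against 2.24 at 0 h, where it stood below Tet1, and Dnmt1 at 72 h with 1.66 against 0.770 at 0 h. The Uhrf1 course differed from bulk: 36 h (2.72) and 72 h (2.74) stood above 0 h, and the lowest level was at 24 h (1.80). In bulk both 36 and 72 h lay below both mESC libraries, and 36 h was lowest. Tdg was highest at 36 h with 1.03 against 0.515 at 0 h.

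**Figure D2:**
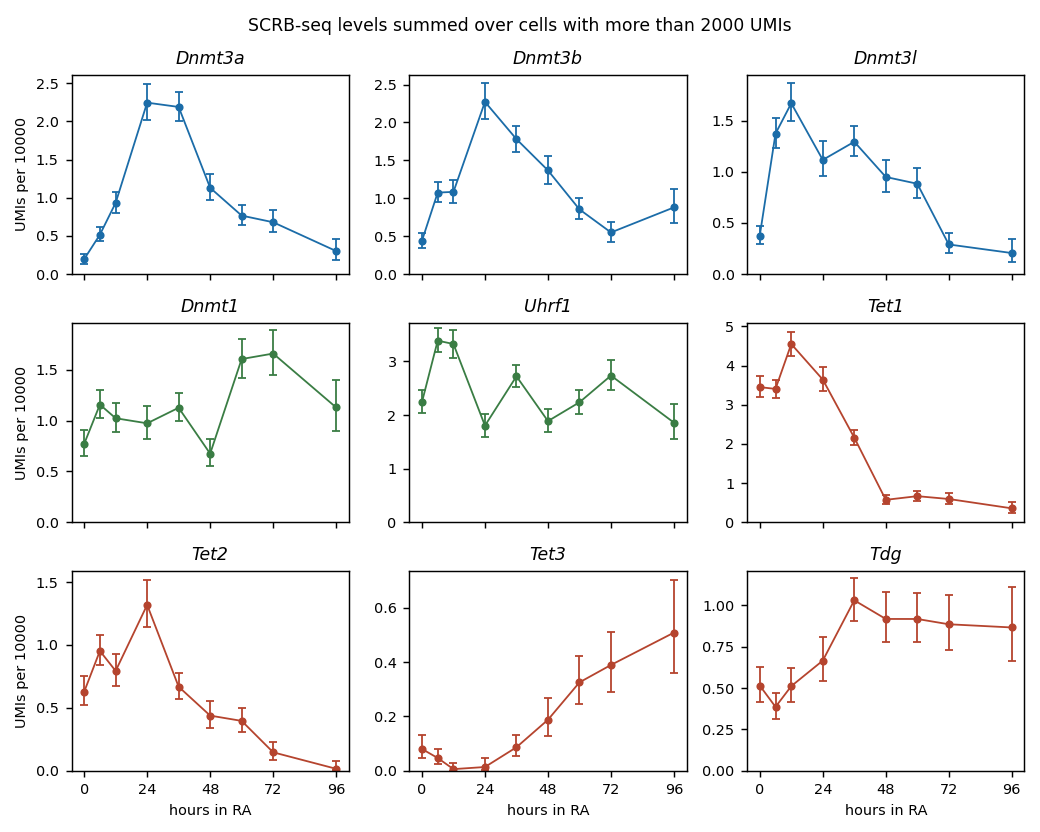
SCRB-seq levels (UMIs per 10000 UMIs summed over cells with more than 2000 UMIs) against hours in RA, 1 panel per gene, with exact 95% Poisson intervals. Dnmt3a and Dnmt3b are highest at 24 h (2.25 and 2.27), Dnmt3l at 12 h (1.67), and Tet3 at 96 h (0.509).

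To compare shares of cells, each SCRB-seq cell was thinned to 2000 UMIs. A Dnmt3a UMI was then found in 11 of 282 cells at 0 h (3.90%; 9.93% without thinning) and in 99 of 334 cells at 36 h (29.6%). At this depth a cell without a UMI may still express the gene. SMART-seq2 detected more: Dnmt3a was above 1 RPKM in 59 of 82 cells at 0 h (72.0%), 74 of 86 at 12 h (86.05%), 89 of 89 at 24 h (100%) and 69 of 82 at 48 h (84.1%). Dnmt3l was above 1 RPKM in 58.5%, 94.2%, 94.4% and 73.2% of cells at 0, 12, 24 and 48 h, and above 100 RPKM in 6.10%, 41.9%, 30.3% and 30.5%. Thus both the share of cells with Dnmt3l and the share at high level were greater at 12 h than at 0 h, with exact 95% intervals apart (2.01% to 13.7% and 31.3% to 52.99% for the upper threshold). All 3 Dnmt3 genes were above 1 RPKM together in 31 of 82, 67 of 86, 73 of 89 and 44 of 82 cells.

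Tet1 was above 1 RPKM in all 82 cells at 0 h and 62 of 82 at 48 h (75.6%), and Tet2 in 80 of 82 and 54 of 82 cells (65.9%). Both were above 1 RPKM in 86 of 86 cells at 12 h but in 40 of 82 at 48 h (48.8%). The share of Tet3-positive cells was 24.4%, 19.8% and 22.5% until 24 h and 53.7% at 48 h. Uhrf1 stayed above 1 RPKM in at least 95.1% of cells, while its share above 100 RPKM was 87.8%, 65.1%, 39.3% and 42.7%. At 48 h, 7 cells had Pdgfra above 1 RPKM without Cd24a above 100 RPKM, 27 had the reverse, 3 had both and 45 had neither. Dnmt3l was above 1 RPKM in 7 of the 7 Pdgfra cells (interval 59.04% to 100%) and 17 of the 27 Cd24a cells (62.96%, interval 42.4% to 80.6%), and Tet3 in 3 of 7 and 20 of 27. These intervals overlap. Cells of one time come from 1 culture and are not replicates, so the intervals cover sampling of cells only.

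**Figure D3:**
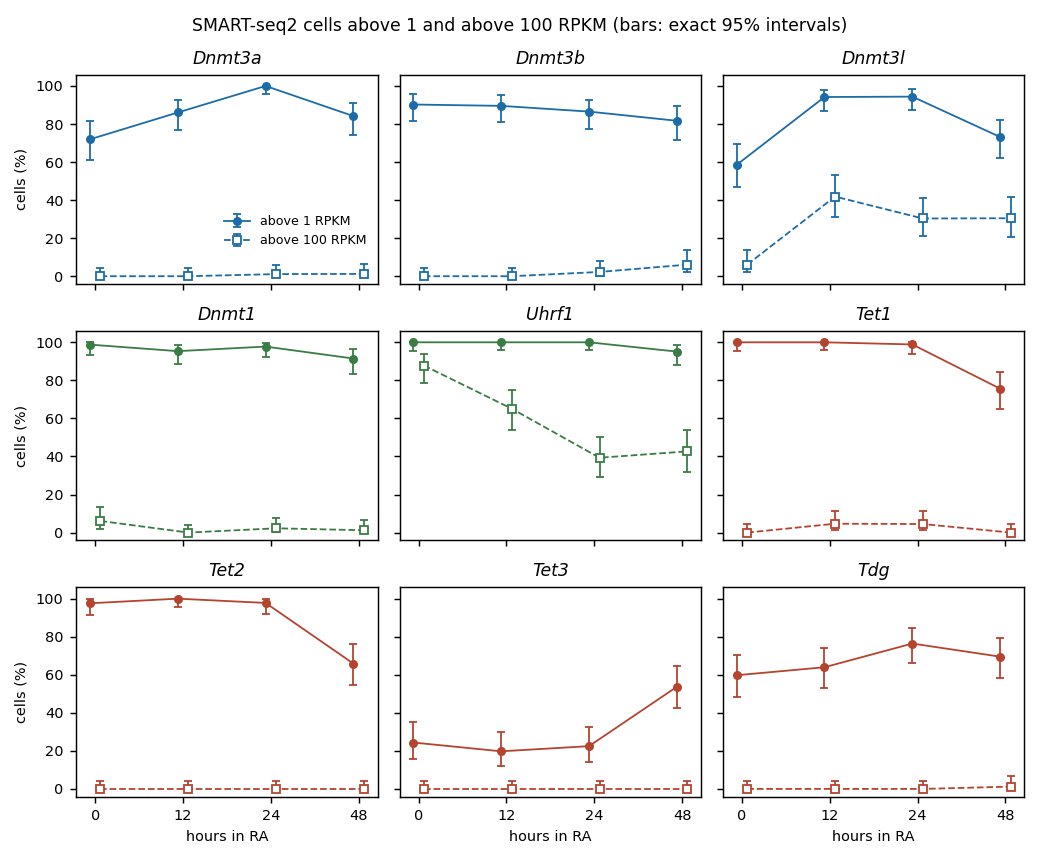
Percent of SMART-seq2 cells above 1 RPKM (filled circles) and above 100 RPKM (open squares) at 0, 12, 24 and 48 h (82, 86, 89 and 82 cells), with exact 95% binomial intervals. Dnmt3l above 100 RPKM goes from 6.10% to 41.9% of cells between 0 and 12 h, and the shares for Tet1 and Tet2 above 1 RPKM are 75.6% and 65.9% at 48 h.

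The second question was how the enzymes differ between mESCs and the sorted cell types at 96 h, where each group had 2 libraries. The mESC libraries are not labelled as sorted, so a change from mESCs cannot be told apart from an effect of staining and sorting. Gapdh stood at 3774 and 4029 CPM in mESCs, 2689 and 2769 CPM in ectoderm-like and 2802 and 2321 CPM in XEN-like libraries. Only the comparison between the sorted types is free of this difference. Differences were tested with edgeR's quasi-likelihood test over 8947 genes with Benjamini-Hochberg adjustment. All 9 genes passed the filter on low counts. Between sorted ectoderm-like cells and mESCs 6 of the 9 genes changed, 2 higher and 4 lower, where 9.85% of all genes were called higher and 9.28% lower. Between sorted XEN-like cells and mESCs 3 genes changed, all lower, where 10.5% of all genes were called lower and 12.3% higher. No gene of the 9 was called higher there, although 1 had an unadjusted p under 0.05 in that direction, and DESeq2 called none higher either. Between the sorted cell types 1 gene changed, higher in XEN-like cells, where 6.99% of all genes were called higher and 5.74% lower in XEN-like cells. Over all genes the median log2 fold change was 0.05, -0.06 and -0.06 in these comparisons. With library totals as the only scaling, these medians became 0.36, 0.15 and -0.16, and calls over all genes split into 1372 higher and 587 lower (881 and 830 with TMM factors) for ectoderm-like cells and 1336 and 703 (1103 and 939) for XEN-like cells.

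**Figure D4:**
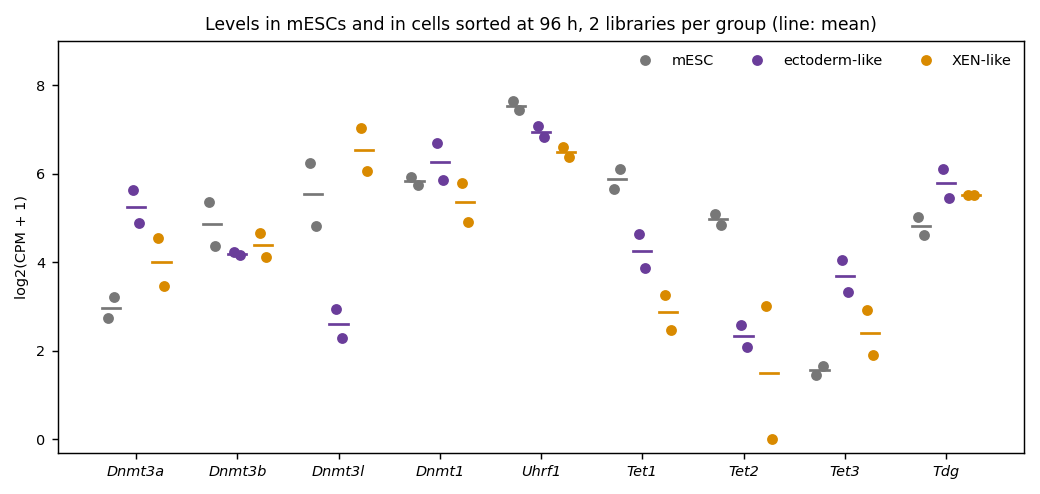
Levels of the 9 genes, as log2(CPM + 1), in each library of mESCs, sorted ectoderm-like and sorted XEN-like cells (points, 2 libraries per group; lines mark the group means). Dnmt3l is at 6.67 and 3.88 CPM in ectoderm-like and 130 and 65.6 CPM in XEN-like libraries; Tet1 and Tet2 are below both mESC libraries in every sorted library.

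Dnmt3l set the sorted cell types apart. It stood at 74.4 and 27.4 CPM in mESCs, 6.67 and 3.88 CPM in ectoderm-like cells and 130 and 65.6 CPM in XEN-like cells. The ectoderm-like libraries lay below, and the XEN-like libraries overlapped, the mESC range. The log2 fold change was -3.54 ± 0.55 (SE) from mESCs to ectoderm-like cells (adjusted p = 0.0011, edgeR) and 0.73 ± 0.43 from mESCs to XEN-like cells (adjusted p = 0.2491, edgeR). Between XEN-like and ectoderm-like cells it was 4.27 ± 0.55 (adjusted p = 0.001178, edgeR). Of the 11 pluripotency markers, 5 were called higher and 1 (Sox2) lower in XEN-like than in ectoderm-like cells (median log2 fold change 1.56), where 6.99% and 5.74% of all genes were. Against mESCs all 11 were lower in XEN-like cells (median -4.33), while Dnmt3l was not called. The list summed to 6267 and 4524 CPM in sorted XEN-like and 789 and 432 CPM in sorted ectoderm-like libraries, against 13393 and 18318 CPM in mESCs. Most of that sum was Dppa5a (5947 and 4351 CPM in XEN-like cells), while Sox2 was at 1.52 and 3.65 CPM and Fgf4 was at 0 in 1 of the XEN-like libraries. Their part in the Dnmt3l level was not tested.

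Dnmt3a rose in ectoderm-like cells, from 5.69 and 8.27 CPM to 48.4 and 28.4 CPM. The groups did not overlap, and the log2 fold change was 2.13 ± 0.44 (adjusted p = 0.005415, edgeR). Without ectoderm-like replicate 1 the adjusted p was 0.05763. In XEN-like cells Dnmt3a was at 22.3 and 10.0 CPM, above both mESC libraries, with a log2 fold change of 1.03 ± 0.46 that did not pass (adjusted p = 0.1375, edgeR). The difference between XEN-like and ectoderm-like cells, -1.10 ± 0.41, did not pass either (adjusted p = 0.1116, edgeR). Dnmt3b was at 17.8 and 16.8 CPM in ectoderm-like and 24.4 and 16.4 CPM in XEN-like cells, and neither change from mESCs passed (log2 fold changes -1.09 ± 0.39 and -0.74 ± 0.39; adjusted p = 0.07287 and 0.1961, edgeR).

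Uhrf1 fell in both cell types, from 199 and 172 CPM to 134 and 112 CPM in ectoderm-like cells and 95.5 and 82.03 CPM in XEN-like cells, with no overlap between any of the 3 groups. Its log2 fold change was -0.90 ± 0.25 (adjusted p = 0.02516, edgeR) and -1.26 ± 0.25 (adjusted p = 0.004019, edgeR). The first of these did not pass with library totals as the only scaling (adjusted p = 0.1182) or when any 1 library of mESCs or ectoderm-like cells was left out (adjusted p from 0.0595 to 0.1524). Dnmt1 was at 102 and 56.9 CPM in ectoderm-like and 54.3 and 29.2 CPM in XEN-like cells, and its log2 fold changes of 0.19 ± 0.34 and -0.63 ± 0.35 did not pass (adjusted p = 0.758 and 0.2275, edgeR). Its spread within a group was as wide as the difference from mESCs.

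Tet1 and Tet2 fell in both cell types. Tet1 went from 48.99 and 67.9 CPM to 23.9 and 13.6 CPM in ectoderm-like cells (log2 fold change -1.96 ± 0.37, adjusted p = 0.003698, edgeR) and to 8.63 and 4.56 CPM in XEN-like cells (-3.30 ± 0.43, adjusted p = 0.0003003, edgeR). Tet1 was lower in both XEN-like than in both ectoderm-like libraries, but that difference did not pass (-1.34 ± 0.45, adjusted p = 0.07692, edgeR). Tet2 went from 33.2 and 27.9 CPM to 5.00 and 3.23 CPM in ectoderm-like cells (-3.17 ± 0.62, adjusted p = 0.004203, edgeR). In XEN-like cells Tet2 was at 7.11 CPM in replicate 1 and had no UMI in replicate 2, where 3 UMIs would be 2.73 CPM (-3.06 ± 0.63, adjusted p = 0.004497, edgeR). Without ectoderm-like replicate 2 the ectoderm-like calls of Tet1 and Tet2 were lost (adjusted p = 0.05642 and 0.0616). Tet3 rose in ectoderm-like cells, from 1.75 and 2.18 CPM to 15.6 and 9.04 CPM (2.30 ± 0.59, adjusted p = 0.0176, edgeR), a call that DESeq2 did not make (adjusted p = 0.09441) and that was lost when any 1 library of these groups was left out (adjusted p from 0.05061 to 0.1713). In XEN-like cells Tet3 was at 6.602 and 2.73 CPM, 13 and 3 UMIs (1.09 ± 0.66, adjusted p = 0.2614, edgeR). Tdg was at 68.4 and 42.6 CPM in ectoderm-like and 44.7 and 44.7 CPM in XEN-like cells, above both mESC libraries, without passing (0.70 ± 0.33 and 0.50 ± 0.33; adjusted p = 0.166 and 0.3166, edgeR).

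The third question was whether the enzymes differ along the CD24 gates and between the PDGFRA gates before 96 h. At 48 h, Dnmt3l stood at 160, 170 and 164 CPM in Q1, Q2 and Q3 and at 104 CPM in Q4, and Dnmt3a at 62.2, 52.1, 36.7 and 42.3 CPM. Both were past counting error between Q4 and Q1, at 1.53-fold lower (interval 1.25 to 1.88) and 1.47-fold lower (interval 1.06 to 2.04). They were the only 2 of the 9 genes that were, where 23.3% of all genes were. For Dnmt3l the fold was smaller than the 2.71-fold ratio between the mESC libraries, and Q1 to Q3 showed no gradient. All 4 gates held more Dnmt3l than the 59.4 CPM of the whole culture at 48 h, and less Dnmt1 (25.9 to 45.1 CPM against 83.4 CPM), so gated and whole-culture libraries are not directly comparable. From Q1 to Q4 the pluripotency list stood at 6660, 6593, 5909 and 4284 CPM and the ectoderm list at 885, 1035, 1422 and 1560 CPM, with no marker of either list at 0. The pluripotency sum may largely follow 1 gene, Dppa5a. Its average of 4741 CPM over the 25 bulk libraries exceeds the whole list sum in Q4, so that average does not give its part in these gates. The part of these lists in the levels was not tested.

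At 72 h Dnmt3l was lower in each higher CD24 class, at 127, 42.3 and 14.6 CPM in T1, T2 and T3. The level in T3 was 8.68-fold below that in T1 (interval 5.39 to 14.8). Dnmt3b stood at 31.1, 17.6 and 13.05 CPM, 2.38-fold lower in T3 than in T1 (interval 1.32 to 4.48). Of the 9 genes 4 were past counting error between T3 and T1, 1 higher (Tdg, 1.45-fold, interval 1.00 to 2.12) and 3 lower (with Tet2 on 10 UMIs in all), against 26.2% of all genes. Dnmt3a, at 28.7, 21.2 and 31.5 CPM, showed no gradient. The sum of the pluripotency list again ran with Dnmt3l, at 4636, 1980 and 1313 CPM, with Fgf4 at 0 in T2 and T3 and Esrrb at 0 in T3. The ectoderm list ran against Dnmt3l, at 1294, 2047 and 2492 CPM. Here too the pluripotency sum may largely follow Dppa5a. Its average of 4741 CPM over the 25 bulk libraries exceeds the whole list sum in each of these gates, so that average does not give its part here. The part of these lists was not tested.

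PDGFRA+/CD24- cells at 72 h held 146 CPM of Dnmt3l (interval 126 to 167), 2.36-fold the summed PDGFRA- gates (interval 1.94 to 2.86). The T1 gate alone held 127 CPM (interval 108 to 148), so the intervals overlap and the fold arises from T2 and T3. Dnmt3a stood at 6.61 CPM in PDGFRA+/CD24- cells, 4.14-fold below the summed gates (interval 2.10 to 9.32), and Dnmt1 at 17.6 CPM, 2.42-fold lower (interval 1.57 to 3.89). Tet1 (3.67 CPM), Tet3 (2.94 CPM) and Uhrf1 (80.8 CPM) were also below every PDGFRA- gate of that time. In all, 6 of the 9 genes were past counting error, 1 higher and 5 lower, against 43.3% of all genes, of which 1519 were higher and 2257 lower. The pluripotency list stood at 7167 CPM in these cells, of which Dppa5a made up 6921 CPM. XEN markers stood at 4380 CPM.

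**Figure D5:**
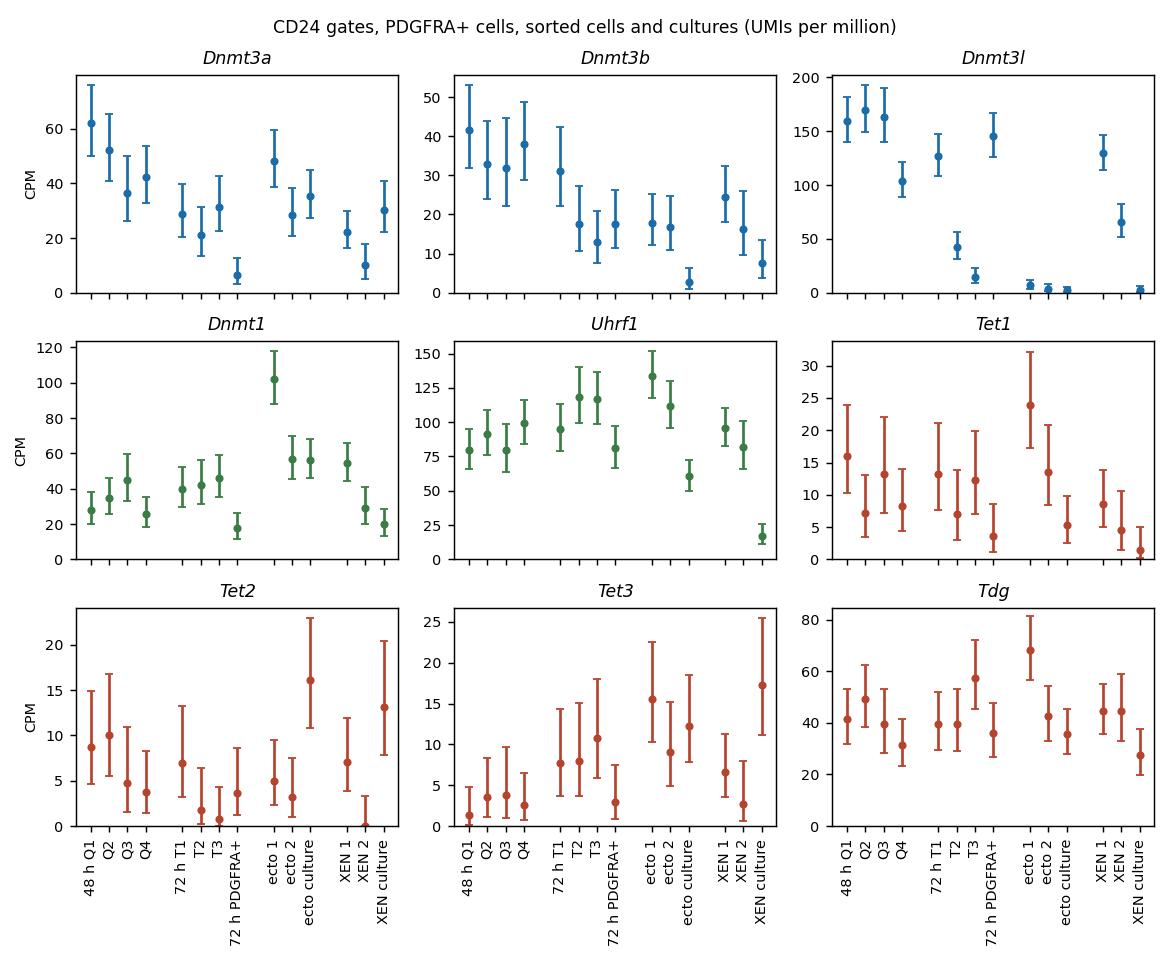
Levels of the 9 genes (CPM, exact 95% Poisson intervals) in the CD24 gates at 48 and 72 h, the PDGFRA+/CD24- gate at 72 h, and the longer cultures beside the sorted cells they came from. Dnmt3l is at 127, 42.3 and 14.6 CPM in T1, T2 and T3, at 146 CPM in PDGFRA+/CD24- cells, and at 2.14 and 2.07 CPM in the ecto and XEN cultures.

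In longer culture the marker lists were less distinct. The ectoderm list summed to 1653 CPM in ecto culture and 1552 CPM in XEN culture, against 611 and 323 CPM in sorted XEN-like cells. The XEN list summed to 2235 and 10097 CPM in ecto and XEN culture, against 485 and 1779 CPM in sorted ectoderm-like cells. Whether the cultures kept the sorted cell types was not tested. Dnmt3l was near the floor in both cultures, at 2.14 CPM (4 UMIs) in ecto culture and 2.07 CPM (3 UMIs) in XEN culture. For XEN-like cells this was 51.5-fold below the sorted cells (interval 17.5 to 251), and for ectoderm-like cells 2.51-fold (interval 0.827 to 10.2), not past counting error. Dnmt3b stood at 2.68 CPM in ecto culture and 7.59 CPM in XEN culture, 6.47-fold (interval 2.62 to 20.7) and 2.84-fold (interval 1.49 to 5.96) below the sorted cells. Dnmt3a stood at 35.3 and 30.4 CPM, within the sorted ectoderm-like range for ecto culture and 1.69-fold above sorted cells (interval 1.11 to 2.56) for XEN culture. In both cultures Dnmt3a was thus the most abundant of the 3 de novo transcripts.

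Tet2 was higher in both cultures than in the sorted cells. It stood at 16.1 CPM in ecto culture, 3.84-fold (interval 1.97 to 7.84), and 13.1 CPM in XEN culture, 2.87-fold (interval 1.36 to 6.19). Tet1 stood at 5.35 and 1.38 CPM, and in both cultures Tet2 outnumbered Tet1, whereas Tet1 outnumbered Tet2 in the mESC libraries and in the whole cultures at all 9 RA times. Among the gated libraries Tet2 was above Tet1 in Q2 at 48 h (14 and 10 UMIs) and level with it in PDGFRA+/CD24- cells at 72 h (5 UMIs each). Tet3 was at 12.3 CPM in ecto culture and 17.2 CPM in XEN culture, the latter 3.30-fold above sorted XEN-like cells (interval 1.70 to 6.62). Of the 9 genes, 6 were past counting error between ecto culture and sorted cells (1 higher, 5 lower) and 9 between XEN culture and sorted cells (3 higher, 6 lower), where 53.8% and 59.6% of all genes were. Scaled to Gapdh, which stood at 1494 CPM in ecto culture against 2689 and 2769 CPM in the sorted cells, the summed ratios of ecto culture to sorted cells turned from below to above 1, from 0.649 to 1.18 for the de novo, 0.569 to 1.04 for the maintenance and 0.754 to 1.38 for the removal enzymes.

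Uhrf1 and Dnmt1 were low in XEN culture, at 17.2 and 20.0 CPM, 5.26-fold (interval 3.49 to 8.27) and 2.27-fold (interval 1.51 to 3.51) below sorted XEN-like cells. S-phase genes moved with them: the list of 15 summed to 557 CPM in XEN culture and to at least 1603 CPM in every other library, and the 12 G2/M genes to 331 CPM against at least 1384 CPM. Ecto culture, with 1620 CPM of S-phase transcripts, held 60.5 CPM of Uhrf1 and 56.2 CPM of Dnmt1. Over the 25 bulk libraries Uhrf1 correlated with the S-phase sum (Pearson r = 0.86 on log2(CPM + 1)) more closely than Dnmt1 (0.54) or Tet1 (0.53). XEN culture was by far the lowest library for both Uhrf1 and the S-phase sum, so 1 library may carry much of that coefficient. The correlations were not computed without it. The libraries also share time points and sorts, so the correlations are a description. The part of cell division in these levels was not tested.

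Partner genes of the pathway were counted over fixed lists. Among 8 maintenance partners 7 were tested. In ectoderm-like cells 2 were called, both lower than in mESCs (median log2 fold change of the list -0.58, with 9.28% of all genes called lower), and in XEN-like cells 5, each lower (median -1.20, with 10.5% of all genes called lower). These shares of all genes, and the 9.85% and 12.3% called higher, are the background for the counts of the lists that follow. Dppa3, which shields DNA from UHRF1, was at 43.3 and 34.8 CPM in mESCs and without a UMI in either XEN-like library, at least 39.9-fold lower with a floor of 3 UMIs over the group. Cdca7, a partner of the remodeller HELLS, fell in XEN-like cells against mESCs (-1.41 ± 0.28, adjusted p = 0.003925, edgeR) and against ectoderm-like cells (-1.89 ± 0.28, adjusted p = 0.002227, edgeR). Hells, Lig1 and Usp7 were the other genes lower in XEN-like cells, and Usp7 was also lower in ectoderm-like cells.

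Among 11 excision and repair genes 7 were tested. Ung, a uracil DNA glycosylase, was lower than in mESCs in both cell types (-1.20 ± 0.34 and -2.47 ± 0.39; adjusted p = 0.0281 and 0.000927, edgeR). It was the 1 gene called in ectoderm-like cells, while in XEN-like cells Parp1 and Apex1, the abasic site endonuclease, were lower too, both also below ectoderm-like cells. The list's medians were -0.33, -1.17 and -1.10 in the 3 comparisons. Of the tested 8 methyl-CG readers and imprint guards, Zfp57, which protects imprints, was lower (-2.48 ± 0.48 and -3.11 ± 0.53) and the methyl-CG binding protein Mbd2 higher in both cell types than in mESCs (2.49 ± 0.75 and 3.04 ± 0.73). Zbtb33 was higher in ectoderm-like cells, and Zbtb38 and Trim28 were lower in XEN-like cells (medians of the list 0.07 and -0.58).

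Among 8 TET partners and cofactors 7 were tested, with 1 called higher and 1 lower in each cell type against mESCs (medians -0.27 and -0.09; of all genes 9.85% were called higher and 9.28% lower in ectoderm-like cells, and 12.3% and 10.5% in XEN-like cells). Gadd45a was higher and Gadd45b lower in ectoderm-like cells than in mESCs (1.55 ± 0.48 and -2.54 ± 0.75), and Gadd45g was higher (4.93 ± 0.87) and Cxxc5 lower (-2.08 ± 0.49) in XEN-like cells. Of the 6 methyl donor enzymes Ahcy, which clears S-adenosylhomocysteine, was lower in XEN-like cells than in mESCs (-1.01 ± 0.30, adjusted p = 0.03059, edgeR). A further list held Prdm14, Dppa2, Dppa4 and the histone methyltransferase genes Ehmt1, Ehmt2 and Setdb1, and all 6 were tested. In ectoderm-like cells 4 were called (1 higher, 3 lower, median -1.30, against 9.85% and 9.28% of all genes). In XEN-like cells 4 were called (each lower, median -2.04, against 10.5% of all genes). The list mixes genes of unlike function, so its counts and medians do not measure repression of the de novo enzymes. Prdm14, which represses Dnmt3b and Dnmt3l in naive cells, was at 10.1 and 21.8 CPM in mESCs and had no UMI in any of the 4 sorted libraries, at least 17.8-fold and 16.3-fold lower. Dppa2 and Dppa4, chromatin factors of pluripotent cells, were lower in both cell types. The histone methyltransferase gene Ehmt1 was higher in ectoderm-like cells (1.09 ± 0.31), and the histone methyltransferase gene Setdb1 was lower in XEN-like cells (-1.15 ± 0.32).

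Germline genes that are kept silent by promoter methylation in somatic cells were mostly too low to test, with 4 of 10 tested. Dazl, Sycp3 and Tex19.1 were lower in both sorted cell types than in mESCs (medians of the list -2.72 and -2.57). Dazl was at 176 and 12.6 CPM in the mESC libraries, 9.45 and 1.29 CPM in ectoderm-like cells and 4.06 and 0 CPM in XEN-like cells. Its spread in mESCs ran with that of Dnmt3l and Dnmt3b, which were also higher in replicate 1. The list sum stood at 278 and 63 CPM in mESCs, 192 CPM at 12 h and 43 CPM at 96 h. In SCRB-seq it stood at 0.244 per 10000 UMIs at 0 h, 1.24 at 12 h, 1.73 at 60 h and 0.234 at 96 h, so that 7 of the 8 RA times lay above 0 h.

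The genes whose patterns were most like those of the 9 over the 25 bulk libraries were found among 8053 genes with a mean of at least 10 UMIs (Pearson r on log2(CPM + 1)). For Dnmt3l they were Gm6083 (0.88), D630045M09Rik (0.87) and Dppa5a (0.87). For Tet1 they were Mcm10 (0.91), Hsp90aa1 (0.91) and Zfp428 (0.90), and for Uhrf1 they included Fkbp3 (0.95) and Prpf39 (0.94). Dnmt1 was most like Casp8ap2 (0.94), Ssb (0.94) and Esf1 (0.93), and Tet3 most like Nisch (0.94), Igfbp5 (0.91) and Ube2r2 (0.91). Tet2 was most like Fblim1 (0.89), Kat6b (0.86) and Fuom (0.85). Dnmt3a had lower values, with Sclt1 (0.83), Ppdpf (0.83) and Foxp1 (0.82), as had Dnmt3b with Grwd1 (0.83), As3mt (0.83) and Trim6 (0.82). Tdg was most like its pseudogene Gm9855 (0.89), followed by Gabpb2 (0.81) and Gspt1 (0.80). Among the 9 genes, the closest pairs were Tet1 with Uhrf1 (0.78) and Dnmt3l with Dnmt3b (0.78), and the most opposed were Tet3 and Dnmt3l (-0.62).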

How the data were processed

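RNA was measured in 25 bulk libraries, 9 SCRB-seq plates and 4 SMART-seq2 sets of E14 cells. The bulk and SCRB-seq values are UMI counts deposited by the authors, who aligned reads with BWA 0.7.4 to mouse transcripts and counted each UMI once per gene. The SMART-seq2 values are RPKM deposited by the authors after TopHat and Cuffnorm, as the submitters' processing notes name them (mm10). The 9 genes and the pathway and marker lists were chosen with earlier results of these data known.

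The 3 groups of 2 bulk libraries (mESC, sorted ectoderm-like, sorted XEN-like) shared 1 model, tested by quasi-likelihood in edgeR (version 4.0.16, run under R 4.3.3) after a check on simulated data. Scaling used TMM, low genes were removed by filterByExpr, and p-values were adjusted after Benjamini and Hochberg over the 8947 genes left, with a threshold of 0.05. The labels number these replicates without saying how cultures were shared, so p-values measure the spread between these samples, and an exact permutation of 2 against 2 could not go below 0.333. DESeq2 1.42.0 was an alternative. Every other condition had 1 bulk library: levels carry exact Poisson intervals and ratios exact intervals conditional on the summed count (95%, scipy 1.17.1), which cover counting error only. Bulk depth of 1063830 to 2459483 UMIs sets a floor of 3 UMIs, from 1.22 to 2.82 CPM. SCRB-seq wells above 2000 UMIs were kept, and UMIs were summed over cells. All 9 plates share the same 384 well names, which are plate positions.

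In the SMART-seq2 tables no value from 1 to 10 has 4 decimals (of 15677 to 19878 such values per table), while values from 10 to 100 with 3 decimals are in excess (93.1% to 93.4%), so values below 10 appear to have been written 10 times too high where they had 5 digits. Means, medians and the planned threshold of 5 RPKM were therefore not used, only shares of cells above 1 and above 100 RPKM. Values with a decimal comma (2414 to 2835 per table) were read as decimals, and 2 genes with damaged entries were left out of the UMI tables.

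The text names all 9 genes, the 3 genes most like each over the 25 libraries (1 of them is not reported here), and from each list the genes that passed the test, by size of change. Promoter sequences are from RefSeq (GRCm38.p6). No protein sequences were used here.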

Additional observations from a re-analysis of the deposited data

Results flagged for a closer look

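Dnmt3l changed differently from mESCs in the sorted cell types. The log2 difference between XEN-like and ectoderm-like cells, which is the difference of their changes from mESCs, was 4.27 (adjusted p = 0.001178, edgeR), with both XEN-like libraries (130 and 65.6 CPM) above both ectoderm-like libraries (6.67 and 3.88 CPM). It passed under all 12 alternatives tried.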

How the results depend on the processing

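Of the 10 calls made on the 9 genes, 107 of 120 alternatives kept direction and call, 13 lost the call and 0 reversed it. The calls of Dnmt3l in ectoderm-like cells, of Tet1, Tet2 and Uhrf1 in XEN-like cells and of Dnmt3l between the sorted types, 5 in all, held under every alternative run. When each library was left out in turn, the number of the 9 genes called between ectoderm-like cells and mESCs ranged from 2 (without ectoderm-like replicate 2) to 6 and was 3 without ectoderm-like replicate 1, and genes called overall ranged from 876 to 1750. Between XEN-like cells and mESCs genes called ranged from 1267 to 1962, and between the sorted types from 296 (without ectoderm-like replicate 1) to 1371. Between the sorted types, 2 of the 9 genes were called without the filter on low counts and 3 with the replicate block, which added Dnmt3a and Tet1 (adjusted p = 0.04708 and 0.04519, edgeR). The block, over sorted libraries that share only a number (their deviations correlated at 0.33 over 2 pairs), gave 1973, 2398 and 1339 genes called, against 1711, 2042 and 1139 without it. DESeq2 called 1212, 1545 and 779 genes, and edgeR without the filter 2547, 2709 and 1667. Calls gained were Dnmt3b lower in ectoderm-like cells without the filter (adjusted p = 0.03958) or without mESC replicate 2 (adjusted p = 0.01791), and Dnmt3l higher in XEN-like cells than in mESCs without mESC replicate 1 (adjusted p = 0.02458, edgeR).

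Log2 changes that were not called turned sign in 5 cases. With each library left out in turn, that of Dnmt1 in ectoderm-like cells ranged from -0.21 to 0.50 and that of Tdg between the sorted types from -0.40 to 0.14, both turned without ectoderm-like replicate 1. That of Tet2 between the sorted types ranged from -5.75 without XEN-like replicate 1, which leaves the library without a Tet2 UMI, to 0.77, with -0.05 without ectoderm-like replicate 2, and was -0.12 with the replicate block. The bulk hour of the highest level moved in 17 of 48 alternatives. For the maintenance enzymes it was 6 h with mESC replicate 2 at 0 h, and for the removal enzymes 6 h with TMM factors over the 25 libraries, 6 h relative to Gapdh and 12 h with means over neighbouring times, while Dnmt3a stayed at 24 h in the 4 run. In SCRB-seq the maintenance hour became 72 h with the mean of scaled cells. Relative to Gapdh, the ratio of Q4 to Q1 at 48 h became 0.564 for the de novo and 0.936 for the maintenance enzymes, and that of ecto culture to sorted cells 1.18, 1.04 and 1.38 for the de novo, maintenance and removal enzymes. The causes were not tested, other than that these scalings use fewer or other transcripts as reference. Without thinning, 75 of 81 shares of SCRB-seq cells were outside the interval of the thinned share. For SMART-seq2, other scalings, the median over cells, the log scale and a threshold of 5 RPKM were not run because of the damaged values. Tet3 in mESCs (4 and 5 UMIs) and Dnmt3l in the cultures (4 and 3 UMIs) are near the floor, where depth limits any fold.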

Other observations

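Bulk and SCRB-seq differed at 96 h for Dnmt3l. The whole-culture bulk library held 38.9 CPM, 2.51-fold below its 12 h level (interval 1.93 to 3.30), while SCRB-seq stood at 0.206 per 10000 (15 UMIs in 137 cells), 8.09-fold below its 12 h level (interval 4.83 to 14.6). Whether the assays shared a culture is not stated, and the difference was not tested.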
